A study of Mus musculus with 3 samples.

Results

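The interleukins, chemokines, tumour necrosis factor (TNF) family proteins and their receptors were described in the postnatal hippocampus. Members were the rows of the expression table whose symbol starts with Il, Ccl, Cxcl, Ccr, Cxcr, Tnfrsf or Tnfsf followed by a digit, together with Cx3cl1, Tnf, Lta and Ltb and without Il1rapl1. This gave 169 of the 39377 rows. All 3 libraries form 1 group and hold hippocampal RNA of C57BL/6 mice, genotype WT, taken on postnatal day 14. The labels give total RNA and a mixture of cell types. They name no animal for any library, so the errors and p-values below rest on the spread between these libraries, which may be technical. No second genotype or treatment entered, and the comparisons are between genes within the same libraries.

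Cytokines are secreted or membrane-bound signals that act through surface receptors, most of which start JAK-STAT or NF-kB signalling. Chemokines steer migrating cells along gradients through G protein-coupled receptors, and TNF family ligands act on receptors that control survival, death and inflammatory gene expression. In the brain a small set of these genes has roles outside inflammation. Neurons make Cx3cl1 (fractalkine), which microglia sense through Cx3cr1, Cxcl12 guides migrating granule cells and their precursors through Cxcr4, and Il34 maintains microglia through Csf1r.

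The neighbourhood of Cx3cl1 shows how unequal these genes were. Ccl22, Cx3cl1 and Ccl17 lie next to each other among the members on chromosome 8 (chr8:94745684-94812038, GRCm38), and Cx3cl1 alone among them was at a high level. Ccl22, a ligand of Ccr4, had 0, 0.24 and 0.34 FPKM in libraries 1, 2 and 3 (fragments per kilobase of transcript, scaled to library depth). Cx3cl1 had 132.65, 121.13 and 138.41 FPKM. Ccl17, the other Ccr4 ligand, had 2.11, 0 and 1.95 FPKM, and Ccr4 itself was listed at 0. The 250 bases before the RefSeq start of each gene are shown 5′ to 3′ with every CG dinucleotide in capitals. CG content was chosen because it differed between these windows, and features were not ranked. Cxcl14, another brain chemokine at a high level, is added, whereas Ccl27a, the highest chemokine ligand, is not shown. All were read from GRCm38.p6: Ccl22 at chr8:94745434-94745683, Cx3cl1 at chr8:94771930-94772179 and Ccl17 at chr8:94810203-94810452 on the plus strand, and Cxcl14 at chr13:56296552-56296801 on the minus strand.
Ccl22: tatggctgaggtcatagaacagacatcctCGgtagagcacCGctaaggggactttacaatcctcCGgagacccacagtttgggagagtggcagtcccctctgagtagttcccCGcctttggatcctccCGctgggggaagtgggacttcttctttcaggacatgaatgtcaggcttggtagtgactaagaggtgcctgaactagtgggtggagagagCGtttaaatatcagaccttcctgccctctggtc
Cx3cl1: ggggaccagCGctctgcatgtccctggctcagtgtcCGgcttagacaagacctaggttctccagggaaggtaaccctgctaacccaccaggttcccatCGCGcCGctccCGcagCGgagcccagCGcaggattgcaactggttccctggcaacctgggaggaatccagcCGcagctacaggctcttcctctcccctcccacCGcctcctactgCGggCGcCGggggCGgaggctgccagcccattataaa
Ccl17: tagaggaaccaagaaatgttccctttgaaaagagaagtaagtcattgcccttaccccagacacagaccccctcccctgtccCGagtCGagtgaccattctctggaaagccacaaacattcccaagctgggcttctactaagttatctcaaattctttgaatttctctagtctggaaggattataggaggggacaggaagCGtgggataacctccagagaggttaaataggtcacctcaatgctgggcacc
Cxcl14: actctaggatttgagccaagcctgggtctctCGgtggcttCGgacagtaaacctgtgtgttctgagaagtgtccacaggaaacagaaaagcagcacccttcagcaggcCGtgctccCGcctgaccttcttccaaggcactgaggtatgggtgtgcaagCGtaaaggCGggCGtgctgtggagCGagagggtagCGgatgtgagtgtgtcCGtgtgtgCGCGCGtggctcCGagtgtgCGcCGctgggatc

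These stretches hold 6 CG dinucleotides for Ccl22, 14 for Cx3cl1, 3 for Ccl17 and 16 for Cxcl14. The stretch of Cx3cl1 ends with the letters TATAAA, and the other printed stretches hold no TATAAA on either strand. Promoter windows of 300 bases, running 250 bases before to 50 after a RefSeq start, were found for 128 of the 169 members. The median number of CG dinucleotides per window was 13.5 for members at a mean of at least 10 FPKM, 8.5 for members at a mean of at least 1 FPKM, 5 for members above 0 and under 1 FPKM, and 4 for members listed at 0. Over all genes of the table it was 21 for genes at a mean of at least 10 FPKM and 20 at a mean of at least 1 FPKM. It was 3 for genes listed at 0 and 11 in all. In these medians member windows held more CG the higher the level. Over all genes, expressed genes held more than genes at 0, with little difference between the levels of 1 and 10 FPKM. Members at 10 FPKM or more are part of those at 1 FPKM or more, and their median rests on 16 windows of 11 genes. The expressed members had fewer CG than expressed genes at large. There were exceptions: the window of Il18, the fourth highest member, holds 1 CG dinucleotide. The windows of Ccl27a, the highest member, hold 5, 12 and 11, against 8 in the window of the low Ccl22. The letters TATAAA, searched on both strands, were in 25% of windows of members at a mean of at least 10 FPKM (4 of 16 windows, of 11 genes). They were in 18.2% (8 of 44) when the mean was 1 FPKM or more and in 26% (13 of 50) of those listed at 0. Over all genes they were in 7.08% of windows at a mean of at least 10 FPKM and in 7.09% at a mean of at least 1 FPKM. They were in 19.95% of windows of all genes listed at 0 and in 11.5% of all windows. These are letter counts with no test, and the shares of members rest on few windows.

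Of the 169 members, 53 were listed at 0 in all 3 libraries, 72 were above 0 with a mean under 1 FPKM, and 44 reached a mean of 1 FPKM. Only 12 members reached a mean of 10 FPKM. Among the 164 members that RefSeq lists as protein coding, 31.7% were at 0 and 25% at a mean of at least 1 FPKM, against 19.5% and 63.5% of the 19641 protein-coding rows of the table. The libraries were shallow, at an estimated 3710000, 4150000 and 5980000 fragments, so that a value of 3 fragments on a transcript of 2 kb corresponds to 0.465, 0.411 and 0.289 FPKM. A listed 0 therefore allows a low level, counting error only considered. The level that 3 fragments would give was computed for 52 of the 53 members at 0, and its median was 0.874, 0.763 and 0.542 FPKM in libraries 1, 2 and 3. For Tnf it was 0.587, 0.517 and 0.364 FPKM, and for Il6 0.920, 0.802 and 0.571 FPKM. For the short transcript of Ccl21b it was as high as 5.78 FPKM. Of the 72 low members, 42 were at 3 or fewer estimated fragments in every library.

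Zeros were more common among ligands than among receptors. Of the 86 interleukins, chemokine ligands and TNF ligands, 39 were listed at 0, and of the 78 receptors and binding proteins 14 were. At higher levels the difference was small: 20 ligands (23.3%) and 21 receptors (26.9%) had a mean of at least 1 FPKM, and 7 and 5 reached 10 FPKM. A listed 0 allows a higher level on a short transcript, and the part of transcript length in the zeros was not tested. Interleukins were the emptiest group, with 19 of 35 at 0 and 6 at a mean of at least 1 FPKM. Chemokine receptors were close behind, with 8 of 17 at 0 and Cxcr4 alone at a mean of at least 1 FPKM. TNF receptors were the fullest group, with 1 of 20 at 0 (Tnfrsf18) and 7 at a mean of at least 1 FPKM. The remaining counts at 0 were 14 of 37 chemokine ligands, 5 of 41 interleukin receptors and 6 of 14 TNF ligands. Cxcl11, among the 14, is listed by RefSeq as a transcribed pseudogene. Ccl21a, Ccl21b and Ccl27b, also among the 14, have near-identical copies with values above 0, so their zeros are uncertain. The 5 rows outside these groups that the symbol rule takes in are pseudogenes, antisense RNAs or an enzyme (Ccl19-ps1, Ccl19-ps3, Tnfsf13os, Il1bos and Il4i1), and none of them was at 0 in all libraries.

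**Figure D1:**
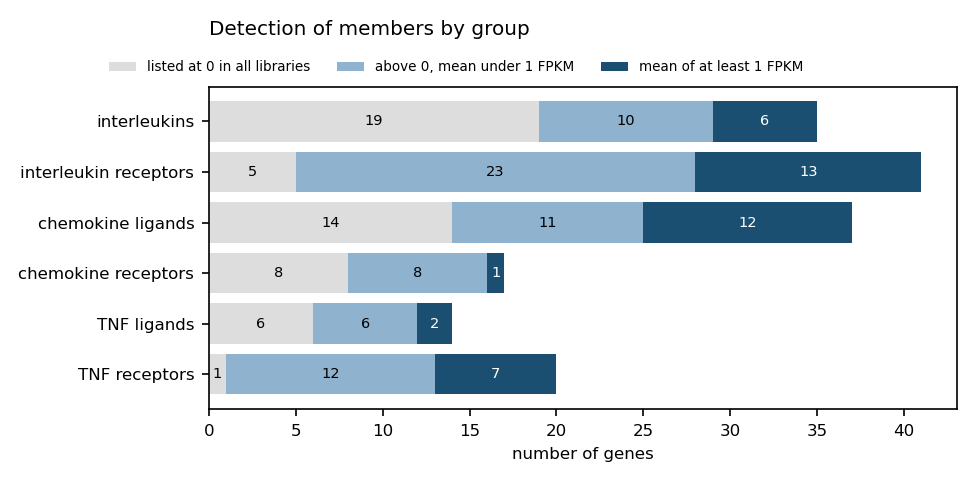
Number of genes (x axis) in each group of members (y axis), divided into those listed at 0 in all 3 libraries, those above 0 with a mean under 1 FPKM, and those with a mean of 1 FPKM or more. Interleukins have 19 of 35 genes at 0, whereas TNF receptors have 1 of 20.

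Most textbook signals of inflammation and of lymphocytes were listed at 0 or under 1 FPKM. Of 19 such cytokines, 11 were listed at 0 in every library: Tnf, Il2, Il4, Il6, Il10, Il12b, Il17a, Ccl4, Ccl5, Cxcl2 and Cxcl9. Another 6 (Il1a, Il1b, Lta, Ccl3, Cxcl1 and Cxcl10) were above 0 with a mean under 1 FPKM, and 2 (Ltb and Ccl2) were at or above it. Over all protein-coding rows of the table, 19.5% were listed at 0. On the short transcripts of Ccl5, Il4 and Ccl4, 3 fragments would give over 1 FPKM in every library (2.99, 2.48 and 1.86 FPKM for Ccl5). Their listed 0 therefore allows a level above 1 FPKM.
Il1b, a central inflammatory cytokine, had 0.25, 0 and 0.15 FPKM, and Cxcl10, an interferon-induced chemokine, was above 0 in library 3 alone. Ltb, the lymphotoxin subunit, was the member just above the level of 1 FPKM, with 0.83, 1.46 and 0.80 FPKM, and Il17rd, a receptor-like regulator of Il17 and FGF signalling, was just below it with 0.90, 1.13 and 0.94 FPKM. Markers of the blood cells that make many of these cytokines were near the floor: of 5 T cell markers Cd3d, Cd3e, Cd3g and Cd8a were listed at 0 and the sum was 0.81, 0.25 and 0.24 FPKM; no B cell or neutrophil marker reached a mean of 1 FPKM, and Ly6g was at 0. Microglial markers were all at a mean of at least 1 FPKM (7 of 7), with sums of 154, 171 and 162 FPKM. In bulk RNA, few cells of a type and little RNA per cell cannot be told apart.

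Some chemokines that attract monocytes or neutrophils were highest in library 1. Ccl2, the main ligand of Ccr2, had 3.44, 0.43 and 0.60 FPKM. Its neighbour Ccl7 had 1.99 FPKM in library 1 and was at 0 in the others. Ccl3, a ligand of Ccr1, had 1.60, 0 and 0.33 FPKM, and the neutrophil chemokine Cxcl1 had 1.17, 0 and 0.24 FPKM. Ccl12, another ligand of Ccr2 in the cluster of Ccl2 and Ccl7, was highest in library 2, with 1.94, 3.37 and 1.94 FPKM. Each rests on few fragments: an estimated 7, 1 and 2 for Ccl2 and 3, 0 and 1 for Ccl3. Like Ccl12, Ccl6 and Ccl9 were highest in library 2. Over the 44 members at a mean of at least 1 FPKM, 17 were highest in library 1, 15 in library 2 and 12 in library 3, close to the split over all such genes (4869, 4349 and 4119 of 13337). Choroid plexus markers were lowest in library 1, with sums of 398, 1084 and 1310 FPKM, mostly Ttr, and red cell markers summed to 952, 1063 and 885 FPKM. The part of these cell types in the cytokine values was not tested.

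Among chemokine ligands, Ccl27a, Cx3cl1 and Cxcl14 stood out. The FPKM of the 37 chemokine ligands summed to 420 ± 12.4 (SD, n = 3), and these 3 genes held 88.3% ± 1.24 of it. Ccl27a, a chemokine best known from skin, had 155.58, 181.00 and 169.34 FPKM and 40.1% ± 1.87 of the sum. Cx3cl1 (chr8:94772180-94782427, plus strand), whose values are given above, had 130.73 ± 8.80 FPKM and 31.1% ± 2.78 of the sum, and ranked 767 among the 19046 genes above 0. Cxcl14 (chr13:56288643-56296811, minus strand), a homeostatic chemokine made by interneurons among others, had 66.71, 82.63 and 66.09 FPKM and 17.1% ± 1.77 of the sum. The order was the same in every library, and the ranges of these 3 genes did not overlap.

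The first place of Ccl27a was in FPKM, and its place in estimated fragments was lower. Its 6 RefSeq-linked transcripts run from 350 to 841 bases, and its gene (chr4:41769467-41774225, minus strand) has near-identical copies. With the longest transcript its values correspond to 334, 451 and 586 fragments, and with the shortest to 51, 83 and 89. Cx3cl1 has a single linked transcript of 3315 bases and corresponds to 1502, 1546 and 2527 fragments. In estimated fragments, at the longest linked transcript of each gene, Cx3cl1 therefore led, with 52.9% ± 3.46 of all fragments of chemokine ligands. Ccl27a had 13.1% ± 1.23. Cxcl12 (487, 485 and 641 fragments) and Cxcl14 (387, 544 and 619) were then also above Ccl27a in every library. Cxcl12 was taken at 5627 bases, the longest of its 3 transcripts. Fragments rise with transcript length at the same FPKM, so this order reflects length as well and is not a second measure of level. Ccl27a and Il11ra1 overlap tail to tail by 8 exon bases on opposite strands.

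Below these came Cxcl12, Ccl25 and Ccl19 among the members. Gm13304, outside the symbol rule and near-identical to Ccl21a and Ccl21b, had 21.53, 27.41 and 16.15 FPKM. Ccl21a and Ccl21b themselves were listed at 0, so the place of Ccl21 in this order is uncertain. Cxcl12 (chr6:117168535-117181368, plus strand) had 24.44, 21.70 and 19.98 FPKM. Ccl25, known as a thymic and gut chemokine, had 7.73, 10.69 and 13.02 FPKM, and 204 of its annotated exon bases (2.74%) overlap Elavl1 on the opposite strand, which had 11.4, 12.46 and 11.91 FPKM; reads of both genes cannot be told apart there, since the strand setting of the counting is not given in the sources used here. Ccl19, a ligand of Ccr7, had 3.29, 4.28 and 3.02 FPKM, and Ccr7 was listed at 0. The other 6 ligands at a mean of at least 1 FPKM were Ccl12, Ccl28, Ccl2, Ccl9, Ccl6 and Ccl17, between 1.35 and 2.42 FPKM. Few fragments stand behind some of these levels, an estimated 5.9, 9 and 8.7 for Ccl19 and 2, 0 and 2.9 for Ccl17. Ccl6 and Ccl9 had 1.14, 2.21 and 0.85 FPKM and 0.49, 2.40 and 1.34 FPKM, both highest in library 2, and lie in the same cluster as Ccl5 and Ccl4, which were at 0.

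**Figure D2:**
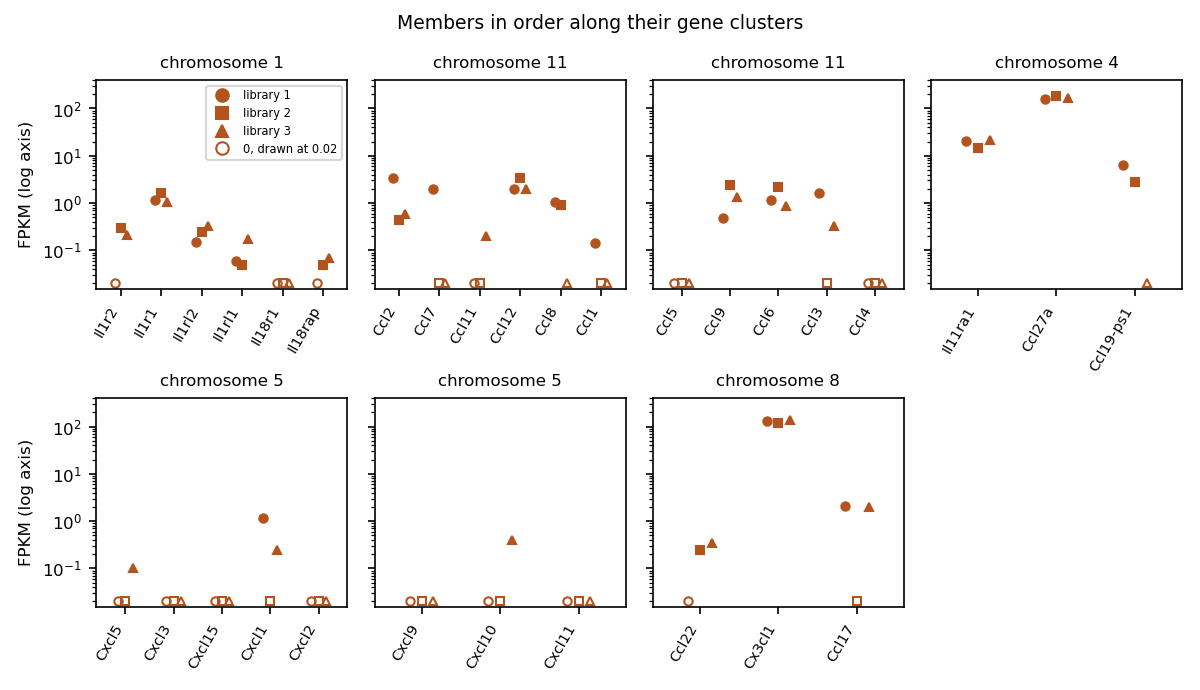
FPKM on a log axis for members in their order along 7 gene clusters, with a symbol for each of the 3 libraries and values of 0 drawn open at 0.02. Cx3cl1 and Ccl27a lie above 100 FPKM and above the other members of their clusters, whereas no member of the chromosome 5 Cxcl clusters has a mean of 1 FPKM.

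Other clusters were low throughout. Il24, Il20, Il19 and Il10, the Il10 family cluster on chromosome 1, were all listed at 0. On chromosome 5 none of Cxcl5, Cxcl3, Cxcl15, Cxcl1, Cxcl2, Cxcl9, Cxcl10 and Cxcl11 reached a mean of 1 FPKM, and 5 of these 8 were at 0. Of the 6 receptor genes in the Il1 receptor cluster on chromosome 1, Il1r1 alone reached a mean of 1 FPKM.

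Cxcr4, the receptor of Cxcl12, carried most of the signal of the Ccr and Cxcr receptors. It had 14.92, 12.62 and 11.02 FPKM and 85.6% ± 4.73 of the summed FPKM of these 17 receptors. The sum leaves out Cx3cr1 and the Ackr genes, and the mean of Cx3cr1 was close to that of Cxcr4 (12.8 and 12.9 FPKM). Cxcl12 was above Cxcr4 in every library, at a ratio of 1.72 ± 0.0876 (SD, n = 3), and both were highest in library 1 and lowest in library 3. Ackr3, the scavenger receptor of Cxcl12, had 2.78, 4.40 and 4.54 FPKM. Cx3cl1 exceeded Cx3cr1, its microglial receptor, which had 12.46, 11.97 and 13.97 FPKM, by a ratio of 10.2 ± 0.380. Cxcl14 exceeded Cxcl12 by a ratio of 3.28 ± 0.540. Ccr1, a receptor of Ccl3, had 0.84, 0.46 and 0.59 FPKM.

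Among interleukins, Il18 and Il34 led. Il18 (chr9:50554700-50581841, plus strand), a cytokine of the Il1 family that is stored as a precursor, had 45.54, 46.28 and 54.16 FPKM and 45.0% ± 0.220 of the summed FPKM of interleukins. Il34 (chr8:110741829-110805949, minus strand), the neuronal ligand of Csf1r, had 30.86, 33.72 and 43.48 FPKM and 33.1% ± 2.90 of the sum. Both were highest in library 3, and their ranges did not overlap. Csf1, the other ligand of Csf1r, had 3.78, 1.83 and 4.55 FPKM, so that the ratio of Il34 to Csf1 was 12.05 ± 5.57, and Csf1r itself had 15.04, 17.88 and 18.05 FPKM. Il18 had little of its partners: Il18r1 was listed at 0, and Il18bp, the secreted inhibitor, had 0.60, 0.90 and 0.64 FPKM.

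The other interleukins at a mean of at least 1 FPKM were Il16, Il17d, Il33 and Il15. Il16, which is made from a long PDZ protein precursor, had 7.33, 6.36 and 8.65 FPKM, with 15.3% of its exon bases overlapping Stard5 on the opposite strand. Il17d had 7.43, 5.61 and 5.94 FPKM. Il33, a nuclear alarmin of glia, had 5.78, 7.51 and 3.97 FPKM, while its receptor Il1rl1 had 0.06, 0.05 and 0.17 FPKM. Il15 had 1.94, 1.52 and 1.32 FPKM, and its receptor chain Il15ra had 3.49, 1.56 and 1.82 FPKM. The ranges of Il16, Il17d and Il33 overlapped, so that their order is not set by these libraries.

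Interleukin receptors were mostly low and were led by Il11ra1 and Il6st. Il11ra1, the Il11 receptor chain, had 20.84, 14.65 and 21.23 FPKM, and Il6st, the gp130 chain that Il6, Il11 and related cytokines share, had 10.63, 10.41 and 10.95 FPKM. Il6ra, the chain specific to Il6, had a mean of 0.39 ± 0.0529 FPKM, at a ratio of Il6st to Il6ra of 27.7 ± 3.85. Il1rap, the accessory chain of Il1 and Il33 receptors, had 8.77, 7.64 and 6.96 FPKM and exceeded Il1r1 (1.17, 1.66 and 1.03 FPKM) in every library. Il10rb, a chain shared by several cytokines, exceeded Il10ra, specific to Il10, at a ratio of 3.43 ± 0.393. Il17rd and Il17ra had overlapping ranges. The other receptors at a mean of at least 1 FPKM, among them Il13ra1, Il17rc, Il2rg, Il20rb and Il4ra, lay between 1.09 and 2.62 FPKM.

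Among TNF receptors, Tnfrsf19 and Tnfrsf21 made up most of the signal. Tnfrsf19 (Troy), which is known from neural progenitors and glia, had 37.27, 32.37 and 34.58 FPKM and 41.3% ± 0.975 of the summed FPKM of the 20 receptors. Tnfrsf21 (death receptor 6) had 26.90, 23.16 and 25.82 FPKM and 30.0% ± 0.802. Tnfrsf21 was below Tnfrsf19 in each library at a ratio of 0.728 ± 0.0165. Tnfrsf12a, the receptor of Tnfsf12, had 6.69, 6.86 and 6.77 FPKM, and Tnfrsf1a, the widely expressed TNF receptor, had 5.75, 5.51 and 5.64 FPKM. Tnfrsf1b, the TNF receptor of immune cells and microglia, had 1.28, 1.27 and 0.75 FPKM, at a ratio of Tnfrsf1a to Tnfrsf1b of 5.45 ± 1.79. Tnfrsf22, a decoy receptor for Tnfsf10, had 1.17, 0.39 and 4.67 FPKM and was high in library 3 alone.

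TNF ligands were scarce. Tnfsf12 (Tweak) had 11.50, 3.57 and 5.74 FPKM and 70.5% ± 14.7 of the summed FPKM of the 14 ligands. It was above Tnfrsf12a in library 1 and below it in libraries 2 and 3. Tnfsf12 shares 48.3% of its exon bases with the read-through gene Tnfsfm13, which had 1.66, 0.89 and 0.70 FPKM. Tnfrsf13b, a receptor of B cells for Tnfsf13 and Tnfsf13b, had 3.11, 3.78 and 2.35 FPKM, while Tnfsf13 had a mean of 0.16 FPKM. Both rest on few fragments, an estimated 5.6, 8 and 6.9 for Tnfrsf13b and 0, 1.3 and 1.5 for Tnfsf13. Tnf, the ligand of Tnfrsf1a and Tnfrsf1b, was listed at 0.

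**Figure D3:**
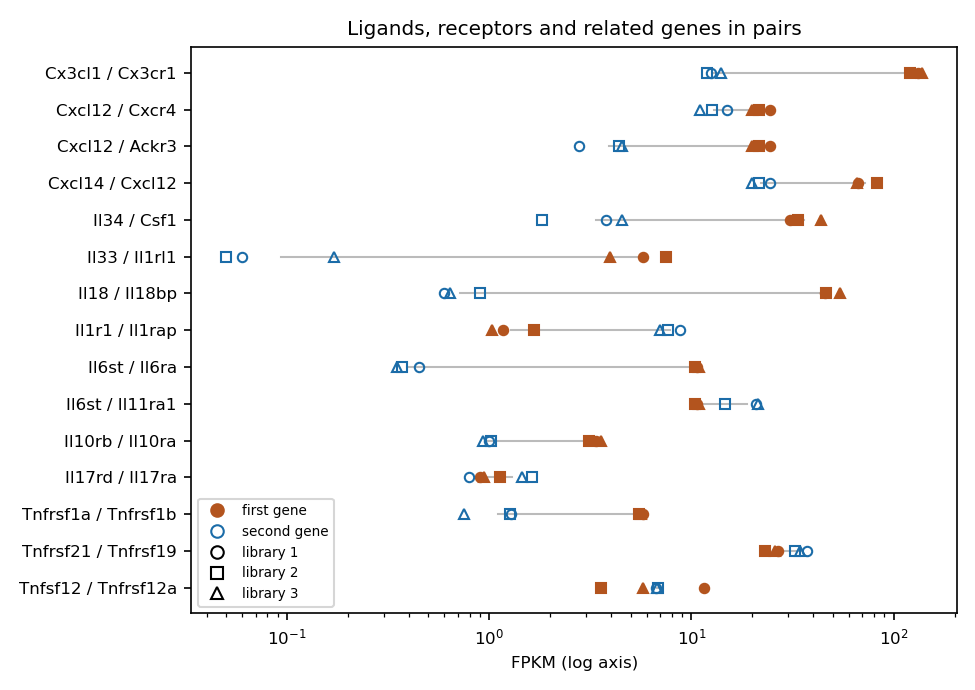
FPKM on a log axis of the first gene (filled) and the second gene (open) of each pair in the 3 libraries, with a line between the means. Cx3cl1 lies at about 10.2 times Cx3cr1, Cxcl12 stays above Cxcr4 in every library, and the values of Tnfsf12 and Tnfrsf12a overlap.

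The levels were set against the genes at large to see which members stand out from a typical expressed gene of these libraries. For each of 13337 genes at a mean of at least 1 FPKM, log2(FPKM + 1) was compared within each library with the median of those genes, and a limma test asked whether the difference exceeds 1 on the log2 scale, which is 2-fold. Of all genes tested, 26.0% were called above and 22.3% below at a Benjamini-Hochberg adjusted p under 0.05. Of the 44 members that passed the filter, 6 (13.6%) were called above, 24 (54.5%) below and 14 were not called. The 44 had a median of the mean levels of 3.07 FPKM, against 10.5 FPKM for all genes tested. The members under the filter were not tested.

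The 6 members above the median gene were 3 chemokine ligands, 2 interleukins and 1 TNF receptor. Ccl27a was higher by 3.90 ± 0.0957 (SE) on the log2(FPKM + 1) scale (limma, adjusted p = 1.01e-05), and Cx3cl1 by 3.54 ± 0.0928 (limma, adjusted p = 1.40e-05). Cxcl14 was higher by 2.68, Il18 by 2.13, Il34 by 1.69 and Tnfrsf19 by 1.65, with limma adjusted p between 8.99e-05 and 0.00451. Each of the 6 was higher in 3 of 3 libraries. Tnfrsf21 was higher by 1.21 and did not pass (limma, adjusted p = 0.0722), although it passed with a pseudocount of 0.1 FPKM (limma, adjusted p = 0.0408) and in TPM (limma, adjusted p = 0.0194). Cxcl12 was higher by 1.02 (limma, adjusted p = 0.724). Il6st and Ccl25 lay at the level of the median gene, with differences of 0.04 and -0.01. The 24 members below were 10 interleukin receptors, 7 chemokine ligands, 3 TNF receptors, 1 interleukin (Il15), 1 TNF ligand (Ltb) and 2 other rows. The calls below depend on which genes set the median. With every gene above 0 in at least 1 library included, 20 of these 24 lost the call, and Il1r1, Il4ra, Ltb and Tnfrsf1b kept it. In that fit 10 members were called above and 76 of 116 below, among 31.3% and 31.7% of all genes.

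When the reference was Cx3cl1, 41 of the 43 other members tested were called below it, as were 85.9% of all 13336 genes, and 0 members were called above it, against 2.48% of all genes. The 2 that were not called were Ccl27a, 0.36 above Cx3cl1 on the log2(FPKM + 1) scale (limma, adjusted p = 1), and Cxcl14, 0.86 below it (limma, adjusted p = 0.889). The highest of those called was Il18, lower by 1.41 (SE 0.106; limma, adjusted p = 0.00586). When the test asked for any difference in place of 2-fold, limma called 1 member above Cx3cl1. Ccl27a was above Cx3cl1 in 3 of 3 libraries, so the order of these genes in FPKM was the same in each library, with a step that was not called as over 2-fold.

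**Figure D4:**
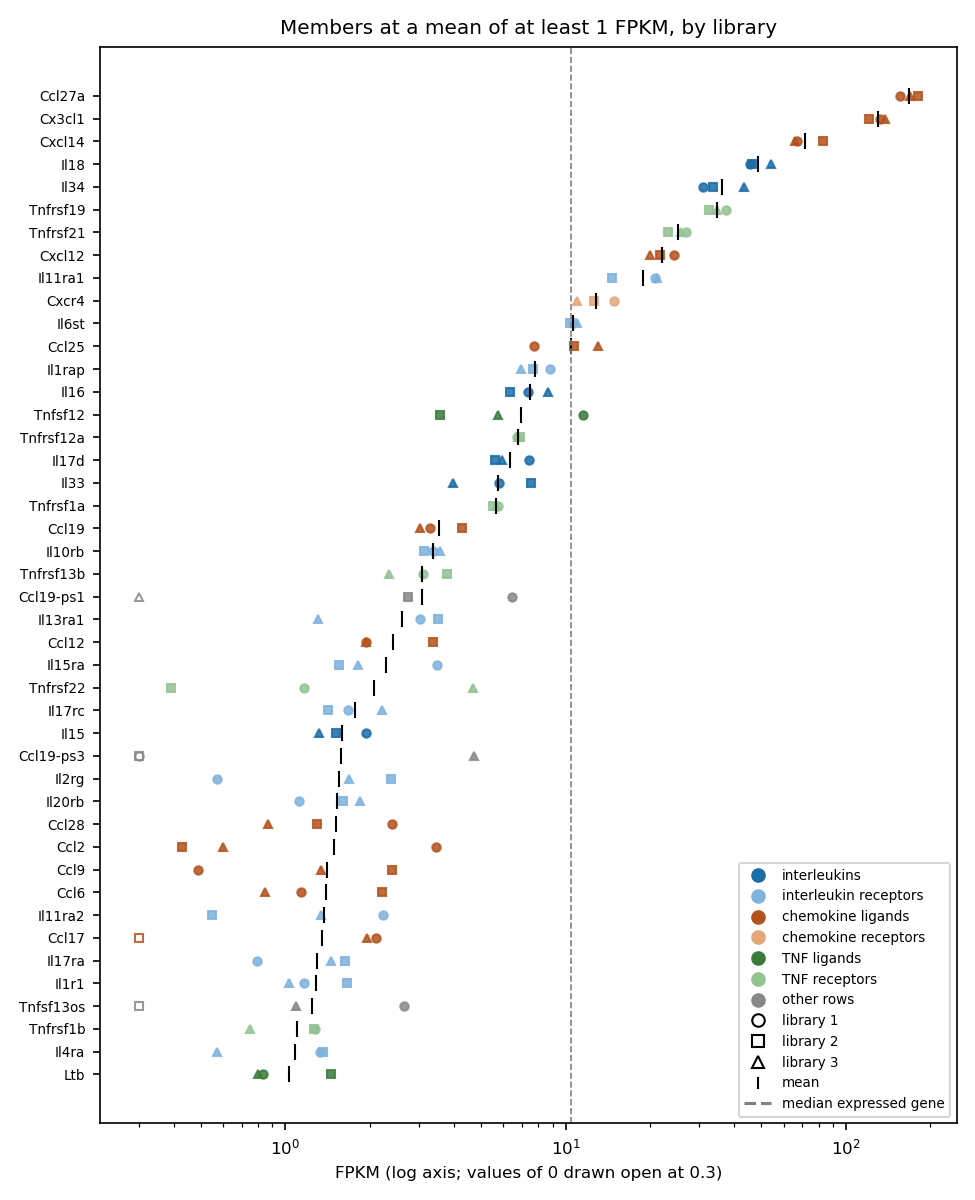
FPKM on a log axis of the 44 members at a mean of at least 1 FPKM, ordered by mean, with a symbol for each of the 3 libraries, a bar for the mean and values of 0 drawn open at 0.3; the dashed line is the median expressed gene at 10.5 FPKM. Ccl27a, Cx3cl1 and Cxcl14 lie at the top, and the points of a gene spread further apart toward 1 FPKM.

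The spread between libraries followed the level. For members at a mean of at least 10 FPKM the median coefficient of variation was 10.01%, against 10.3% for all 6816 genes of that level, and between 5 and 10 FPKM it was 15.3% for both. Between 2 and 5 FPKM it was 39.2% for 8 members against 21.3%, and between 1 and 2 FPKM 51.2% for 17 members against 32.5%. The smallest values belonged to Tnfrsf12a (1.26%), Tnfrsf1a (2.13%) and Il6st (2.55%). Tnfrsf12a rests on an estimated 17.9, 21.2 and 29.2 fragments and Tnfrsf1a on 40.4, 43.8 and 63.9. Counting error alone would give a larger spread at such numbers, so these values do not show a steadier level. The greatest belonged to Ccl19-ps3 (173%), a pseudogene above 0 in library 3 alone, Ccl2 (113%) and Tnfrsf22 (110%). Tnfsf12 stood out among members above 5 FPKM, with 59.1%.

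**Figure D5:**
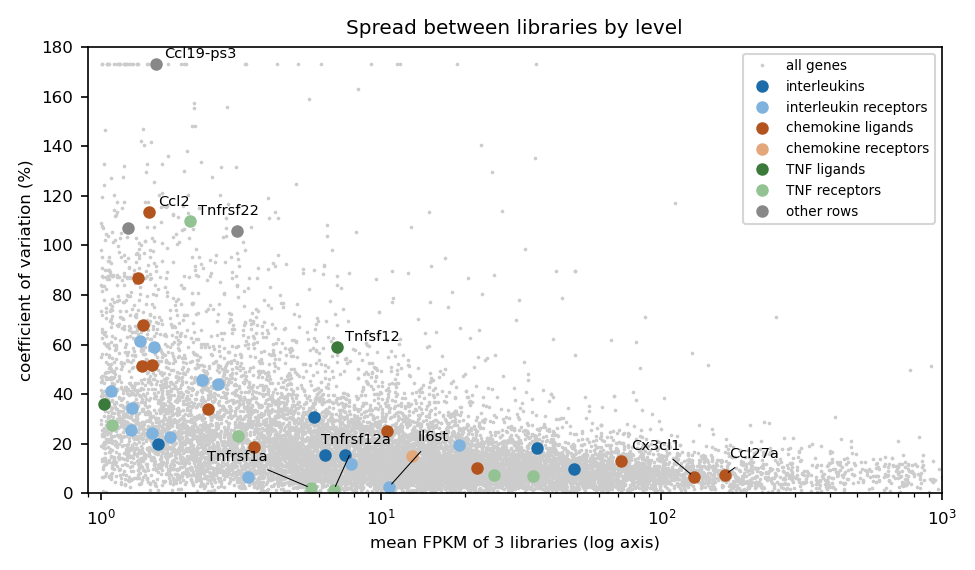
Coefficient of variation over the 3 libraries (y axis, percent) against the mean FPKM (log x axis) for members in colour by group and all genes at a mean of at least 1 FPKM in grey, up to the right edge of the axis. Members above 10 FPKM lie within the cloud of all genes at a median of 10.01%, and those between 1 and 2 FPKM reach 173%.

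Genes of the same pathways that carry other names were described from lists fixed by pathway, to be read against the 26.0% above and 22.3% below over all genes tested. Of 13 other chemokine system genes, with a median of 3.04 FPKM against 0.18 FPKM over the 169 members, 7 were tested and 2 were called above the median gene by limma, with 1 below. Mif, a cytokine-like tautomerase, had 606.23, 606.12 and 726.03 FPKM, and Cmtm5 had 31.38, 37.00 and 39.10 FPKM. Ackr1, a chemokine scavenger of red cells and venules, had 13.86, 9.81 and 22.33 FPKM, and 25.7% of its exon bases overlap Cadm3 on the same strand, which had 67.86, 55.21 and 55.35 FPKM. Of 12 TNF family members under other symbols 4 were tested, with 0 called above the median gene and 1 below. The highest was Ltbr, the lymphotoxin receptor, with 5.67, 6.17 and 7.07 FPKM, followed by Relt and Cd40. Cd27, Cd40lg and Fasl were listed at 0.

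Receptor and signalling genes of these lists were mostly above 0. Of the 44 interferon, JAK-STAT and adaptor genes listed, Irak3 alone was at 0, against 19.5% of all protein-coding rows. The median level was 13.8 FPKM for interferon receptors, 2.43 for JAK-STAT and 3.63 for adaptors, against 3.65 over all protein-coding rows. All 4 interferon receptor genes were at a mean of at least 10 FPKM, led by Ifngr2 with 35.74, 31.91 and 39.15 FPKM, and 1 was called above the median gene. Of 16 other cytokines and receptors of the gp130 and colony-stimulating factor families, 9 were tested, with 1 called above (Cntfr, the CNTF receptor chain, with 27.00, 25.20 and 27.82 FPKM) and 2 below, and Csf2, Csf3 and Osm were at 0. Of 15 JAK-STAT genes 12 were tested, with 1 above (Jak1, 28.26, 24.98 and 27.50 FPKM) and 6 below. Of 25 adaptors and NF-kB genes 20 were tested, with 2 above (Traf3 and Nfkbib) and 8 below. Socs2, a feedback inhibitor of growth hormone and cytokine receptors, had 16.96, 20.51 and 18.58 FPKM, whereas Socs3, induced by Il6-type cytokines, had 1.05, 0.62 and 0.51 FPKM.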

How the data were processed

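Values were the FPKM that the authors deposited in 1 table with 3 library columns, 1 per sample. Per the labels, total RNA was sequenced as paired reads of 150 bases, and the submitters' processing notes name Bowtie2 and GRCm38 (mm10). The sources used here give no counting tool, gene annotation or strand setting. Fragments per library (3710000, 4150000 and 5980000) were estimated from the step size of low FPKM, using transcript lengths of GENCODE M21; 90.8% to 92.5% of those values came within 0.15 of a whole number, against 73.3% of 116 low member values. Fragment numbers are therefore estimates, and no count test was run.

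The test was limma 3.58.1 (treat, R 4.3.3) on log2(FPKM + 1) minus the reference of the same library, at a mean of at least 1 FPKM, with a null of 1 on the log2 scale; p-values were adjusted over all genes tested and called at 0.05. The script was run on simulated data first. Limma draws the variance of each gene toward that of all genes tested, so its SE is not the spread of that gene alone. A fold on this scale understates low genes. Gene positions, promoter windows and the protein-coding class came from RefSeq tables (GRCm38.p6); all 169 members matched by identifier. Copies were transcripts of at least 95% identity over at least 50% of the member (BLAST 2.17.0).

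Named genes were the 15 highest members, the 5 highest of each group, the pair genes, members beside 1 FPKM, the 3 largest and 3 smallest coefficients of variation, 19 textbook cytokines and the 3 highest of each related list; some further members at a mean of at least 1 FPKM are also named. Members and lists were chosen with earlier results of these data known. Alternatives were another pseudocount, no filter, a null of no difference, TPM scaling and leaving out each library; 3 alternatives for the Cx3cl1 share were chosen after seeing the data. The values of 1 member are not reported here.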

Additional observations from a re-analysis of the deposited data

Results flagged for a closer look

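5 genes outside the symbol rule are near-identical to members and were above the level of 3 fragments in every library, so some signal of the families stands under other names. Gm13304, identical to Ccl21b over its whole length and 99.4% identical to Ccl21a, had 21.53, 27.41 and 16.15 FPKM (mean 21.7), while Ccl21a and Ccl21b, ligands of Ccr7, were listed at 0. Gm13306, a copy of Ccl27a and Ccl27b, had 22.94, 13.85 and 3.87 FPKM (mean 13.6), and Gm20878, a copy of Ccl27a, had 3.02, 4.27 and 12.40 FPKM (mean 6.56). Gm2564, a copy of Ccl19 and its pseudogenes, had a mean of 2.74 FPKM, and the read-through gene Tnfsfm13 a mean of 1.08 FPKM. How the authors' counting divided reads among copies is not given in the sources used here, so the values of Ccl27a, Ccl19, Il11ra1, Il11ra2 and the zeros of Ccl21a, Ccl21b and Ccl27b are uncertain to that extent. Groups of 3 libraries were not tested for outliers.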

How the results depend on the processing

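The count of members listed at 0 was 55 to 64 with 1 library left out and 57 when values under 0.1 FPKM counted as 0; the count at a mean of at least 1 FPKM was 41 to 46 with 1 library left out, 51 in TPM and 29 when every library had to reach 1 FPKM. Against the median gene, 6 members were called above and 19 to 23 below with 1 library left out. Without the filter on low values the reference falls by 1.04 on the log2 scale (0.15 in TPM), with 10 members above and 76 below the median gene and 113 below Cx3cl1. Of the 24 members called below with the filter, 20 then lost the call. There Ccl25 (1.03), Il1rap (0.67), Il16 (0.60), Tnfrsf12a (0.49), Il17d (0.40), Tnfsf12 (0.40), Il33 (0.26) and Tnfrsf1a (0.26) turned from below to above the median; none of these passed in either fit. Ccl25 also turned in TPM (0.11), and lay between -0.17 and 0.19 with 1 library left out (above the median without library 1). With a null of no difference 1 member was above Cx3cl1. Tnfrsf21 passed with a pseudocount of 0.1 (limma, adjusted p = 0.0408) and in TPM (0.0194), and also without the filter and with a null of no difference. Calls below the median were lost for Tnfrsf22, Ccl19-ps3 and Ccl17 with a pseudocount of 0.1 and for Ccl19 in TPM. Calls below the median were lost for Ccl19, Tnfrsf22 and Ccl19-ps3 without library 1, for Il10rb, Tnfrsf22 and Ccl19-ps3 without library 2, and for Ccl19, Tnfrsf13b and Ccl2 without library 3; Ccl19-ps1 gained one without library 1. The share of Cx3cl1 among chemokine ligands was 30.2% to 32.7% with 1 library left out and 30.6% with Pf4, Ppbp and Xcl1; it was 28.2% with 4 near-identical copies included, 51.9% without Ccl27a and 52.9% in estimated fragments. With 1 library left out the ratio of Tnfsf12 to Tnfrsf12a, 1.03 in all, ran from 0.684 (without library 1) to 1.28, and that of Il34 to Csf1 from 8.86 to 13.99. No paired analysis was possible because the libraries form 1 group. Depth limits members under about 0.465 FPKM on a 2 kb transcript.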
